A study of Mus musculus with 176 samples.

Results

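Transcripts of 10 glycolysis enzymes were examined in single CD4 T cells that either bound or did not bind a tetramer of the P6 peptide of apolipoprotein B. The enzymes were Hk1, Hk2, Gpi1, Pfkp, Aldoa, Tpi1, Pgk1, Pgam1, Pkm and Ldha, chosen by name as 10 of the 53546 gene names in the count table. All cells were lymph node CD4 T cells of the C57BL/6J strain, a common inbred mouse. Females were given the P6 peptide with complete Freund's adjuvant at 7 weeks of age and again with incomplete adjuvant at 9 weeks, and draining nodes were taken at 11 weeks. The enriched CD4 T cells of either group were incubated with dasatinib, a tyrosine kinase inhibitor, and stained with 2 tetramers of P6 bound to the class II molecule I-Ab that carried different dyes. Antigen-experienced cells were gated as TCRβ+CD4+ with high CD44, and were then sorted as P6+ when they bound both tetramers or as P6- when they bound neither. Of the 176 cells 32 were P6+, from 1 mouse, and the others were P6-, for which no animal is named in the labels. No unimmunized or adjuvant-only mouse is among the samples, so the comparison is between cells of immunized mice that differ in tetramer binding.

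Glycolysis splits glucose into pyruvate in the cytosol, yielding ATP and NADH, and lactate dehydrogenase returns NADH to NAD+ by reducing pyruvate to lactate. T cells that leave quiescence after antigen encounter are known to raise glucose uptake and the transcription of many of these enzymes, under control of mTOR, MYC and HIF-1α, whereas regulatory and memory T cells are generally described as relying more on mitochondrial oxidation. Several steps have alternative isozymes, encoded by separate genes, that differ in regulation and tissue distribution.

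RNA was read by Smart-Seq2, a full-length protocol for single cells in wells that has no molecular identifiers, so amplified reads are not independent molecules and every interval given covers counting error only. P6+ cells held 956708 to 3336102 reads on genes, and 161 of the 176 cells, among them 32 of 32 P6+ cells, passed the limits of 500000 reads, 2000 genes and under 10% mitochondrial reads. Passing P6- cells held 522192 to 3402434 reads. Cell names carried 8 prefixes, written here P2 to P9. Every P6+ cell had prefix P6, together with 11 passing P6- cells, so the first comparison was kept within prefix P6 and the second took the P6- cells of all 8 prefixes, 7 of which held P6- cells only. For those 7 prefixes tetramer binding and prefix cannot be told apart. The groups also differed in general properties of the libraries. The median number of genes per cell was 4396 in P6+ cells, 3674 in P6- cells of prefix P6 and 3432 in all passing P6- cells, and the median share of mitochondrial reads was 1.29%, 6.45% and 3.56%. The 8 CD4 T cell markers summed to 4860, 4916 and 5248 reads per 1000000 (cpm) in the 3 pools, whereas the 8 red blood cell and myeloid markers, the 4 CD8 T and NK cell markers, and the B cell markers Ms4a1 and Cd79a were at or near 0 in P6+ cells. Cd79b, a component of the B cell receptor complex, had 10 reads or more in 2 P6+ cells. Of 3 naive T cell markers Ccr7 was at 823, 3230.2 and 2611 cpm in the 3 pools and Lef1 at 11.7, 423 and 269.8 cpm, so 2 of 3 were lower in P6+ cells, and their part in the differences described here was not tested. Each group is 1 sample in this design, so no test was made between groups, and a pooled level is the summed reads of the cells divided by their summed total.

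P6+ cells had more reads of the glycolysis enzymes than the P6- cells sorted under the same prefix. The 10 enzymes together had 4913 cpm in the P6+ pool, 2397 cpm in the P6- pool of prefix P6 and 3301 cpm in the P6- pool of all prefixes. The P6- pool of prefix P6 was the lowest of the 8 prefixes in this sum, and the highest, that of prefix P7, had 4097 cpm. The largest contributions came from Pkm, Ldha and Aldoa, which made up 74.96% of the enzymes' cpm in P6+ cells, 58.9% in P6- cells of prefix P6 and 73.2% in all P6- cells. The mitochondrial share moved with this difference: the 35 P6- cells whose mitochondrial share was at or under that of the highest P6+ cell, 2.82%, had 4634 cpm of the enzymes, a pooled level close to that of P6+ cells. By single cells the median sum was 3412 cpm in these 35 cells and 4523 cpm in P6+ cells, and 1 of the 35 held 36.6% of their Pkm reads. The median mitochondrial share of the 35 cells, 1.90%, was still above the 1.29% of P6+ cells. The part of library quality in the difference was not tested.

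In single cells the enzymes were either abundant or almost unread. Among the 320 pairs of a P6+ cell and an enzyme, 91 had under 10 cpm but not 0, 97 were at 0, 7, or 2.19%, lay between 10 and 100 cpm, and all others had 100 cpm or more. The same gap was seen in P6- cells, where 32 of 1290 pairs, or 2.48%, lay in that range. Because nearly every cell had a few reads of the abundant enzymes, with at least 1 read of Ldha in 32 of 32 P6+ cells and 96.1% of P6- cells, an enzyme was counted as detected in a cell at 10 reads.

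**Figure D1:**
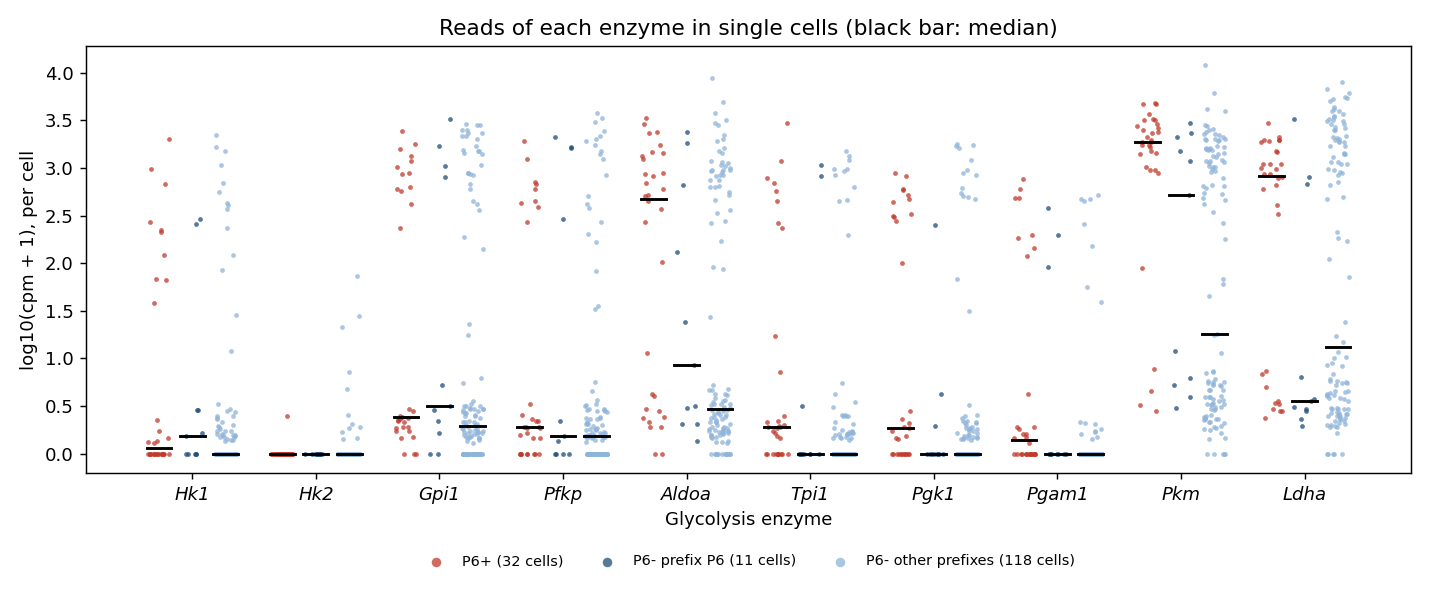
Each point is a passing cell, and the vertical axis gives log10(cpm + 1) for each of the 10 enzymes in P6+ cells (red), P6- cells of prefix P6 (dark blue) and P6- cells of the other prefixes (light blue), with the median as a black bar. Most points lie either near 0 or above 100 cpm (2 on the axis), P6+ cells have medians in the upper range for Pkm, Ldha and Aldoa, and Hk2 is at 0 in nearly all cells.

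Hexokinases phosphorylate glucose on its entry into the cell. Hk1, the form bound to mitochondria in most tissues, ranged from 0 to 2024 cpm over P6+ cells with a median of 0.150, from 0 to 292 cpm with a median of 0.544 in P6- cells of prefix P6, and from 0 to 2198 cpm with a median of 0 in all P6- cells. The ranges overlapped entirely, and Hk1 was detected in 10 of 32 P6+ cells, 2 of 11 P6- cells of prefix P6 and 16 (12.4%) of all passing P6- cells. Pooled levels were 132.7 cpm (95% Poisson interval 129.8 to 135.7), 41.6 cpm (38.4 to 44.9) and 99.4 cpm (98.1 to 100.8). The log2 ratio of P6+ over P6-, taken with a pseudocount of 1 cpm, was 1.65 within prefix P6 and 0.41 over all prefixes. It was -0.48 against the 35 P6- cells of low mitochondrial share, where 1 cell held 76.9% of the Hk1 reads. The direction for Hk1 thus depended on the P6- cells compared, and its negative value rested largely on that cell.

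Hk2, the hexokinase that is typically induced on T cell activation, was almost absent. It had 3 reads in 1 P6+ cell, 0 reads in the P6- cells of prefix P6 and 204 reads in 12 P6- cells (9.30%), of which 3 had 10 or more. The pooled level was 0.0505 cpm in P6+ cells and 1.0 cpm in all P6- cells, and 0 reads in the P6- pool of prefix P6 allow up to 0.194 cpm. Detection in 0 of 32 P6+ cells allows a share of up to 9.38%. Hk2 was below 20 cpm in each pool and is therefore left out of the ratios, which concern 9 of the 10 enzymes.

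Gpi1 converts glucose 6-phosphate to fructose 6-phosphate, and Pfkp is the platelet-type subunit of phosphofructokinase, which catalyses the committed step. Gpi1 ranged from 0 to 2462 cpm in P6+ cells with a median of 1.45, and from 0 to 3259 cpm in P6- cells of prefix P6 with a median of 2.18. It was detected in 13 of 32 and 4 of 11 cells, and the pools stood at 425 cpm (419 to 429.8) and 437 cpm (427 to 448), which gave a log2 ratio of -0.04 within prefix P6. Over all prefixes Gpi1 was detected in 34 P6- cells (26.4%), with 363 cpm and a log2 ratio of 0.23. Gpi1 was therefore near equal in P6+ and P6- pools. Pfkp ranged from 0 to 1927 cpm in P6+ cells with a median of 0.900 and from 0 to 2138 cpm in P6- cells of prefix P6 with a median of 0.523. Its pool was 186 cpm (183 to 189.7) in P6+ cells, 357 cpm (348 to 367) in P6- cells of prefix P6 and 222 cpm (220.2 to 224) in all P6- cells. Of the 9 enzymes Pfkp had the lowest log2 ratio within prefix P6, -0.94, and it was -0.25 over all prefixes. Pfkp was detected in 9 of 32 P6+ cells (28.1%), 4 of 11 P6- cells of prefix P6 (36.4%) and 25 of all P6- cells (19.4%).

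Aldoa splits fructose 1,6-bisphosphate into the 2 triose phosphates. It ranged from 0 to 3308 cpm in P6+ cells with a median of 476, from 0.370 to 2372 cpm in P6- cells of prefix P6 with a median of 7.57, and from 0 to 8828 cpm in all P6- cells with a median of 2.07. The typical P6+ cell thus had abundant Aldoa, and the typical P6- cell had only a few reads, but the highest P6- cells exceeded every P6+ cell. Detection stood at 65.6%, 45.5% and 36.4% of cells. Pools were 777 cpm (769.8 to 784), 340.3 cpm (331 to 349.7) and 484 cpm (480.5 to 487), and the log2 ratio was 1.19 within prefix P6 and 0.68 over all prefixes. Tpi1, which interconverts the triose phosphates, was detected in 10 of 32 P6+ cells, 2 of 11 P6- cells of prefix P6 and 13 of all P6- cells (10.1%). Its highest cell reached 2995 cpm among P6+ and 1514 cpm among P6- cells, with medians of 0.900 and 0. The Tpi1 pools were 214 cpm (211 to 218), 87.7 cpm (83.1 to 92.5) and 84.5 cpm (83.2 to 85.8), for log2 ratios of 1.28 and 1.33. In P6- cells of prefix P6, 1 cell held 67.5% of the Tpi1 reads, and without the cell of each group that had most reads of the 10 enzymes the first ratio was 2.54.

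Pgk1 makes the first ATP of the pathway, and Pgam1 moves the phosphate that is then passed to ADP. Pgk1 ranged from 0 to 888 cpm in P6+ cells with a median of 0.873, and was detected in 12 of 32 cells. In P6- cells of prefix P6 the median was 0 and the highest 248 cpm, and the single cell in which Pgk1 was detected held 98.2% of its reads. The pools were 182 cpm (179 to 185), 14.05 cpm (12.2 to 16.05) and, over all prefixes with 16 cells (12.4%), 94.2 cpm (92.9 to 95.6), and the log2 ratio was 3.60 within prefix P6 and 0.94 over all prefixes. Leaving out of each group the cell with most reads of the 10 enzymes moved the first of these values to 6.79, so its size rested on 1 P6- cell. Pgam1 was detected in 8 of 32 P6+ cells, 3 of 11 P6- cells of prefix P6 and 11 of all P6- cells (8.53%), with highest cells of 767, 378 and 513 cpm. Its pools were 89.99 cpm (87.6 to 92.4), 46.6 cpm (43.3 to 50.1) and 19.9 cpm (19.3 to 20.5). The log2 ratio of Pgam1 was 0.93 within prefix P6, where the shares of cells were near equal, and 2.12 over all prefixes, the highest of the 9 enzymes.

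Pkm, pyruvate kinase of muscle and most proliferating cells, makes pyruvate and the second ATP. It was the most widely detected enzyme, in 29 of 32 P6+ cells, 8 of 11 P6- cells of prefix P6 and 71 of all P6- cells (55.04%). Single cells ranged from 1.81 to 4845 cpm with a median of 1874 in P6+ cells, from 2.0 to 2998 cpm with a median of 522 in P6- cells of prefix P6, and from 0 to 11946 cpm with a median of 17.2 in all P6- cells. Pkm reads above 1000 cpm were seen in 24 of 32 P6+ cells against 44 of all P6- cells, a smaller share, though the highest cells of all were P6-. The pools were 2015 cpm (2003 to 2026), 777 cpm (763 to 791) and 865 cpm (861 to 869), and the log2 ratio was 1.37 within prefix P6 and 1.22 over all prefixes. It remained positive, at 0.68, against the P6- cells of low mitochondrial share, 21 of 35 of which had Pkm and 1 of which held 36.6% of their Pkm reads.

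Ldha encodes the lactate dehydrogenase subunit that favours lactate production. P6+ cells ranged from 1.34 to 2978 cpm with a median of 823, P6- cells of prefix P6 from 0.95 to 3284 cpm with a median of 2.59, and all P6- cells from 0 to 8079 cpm with a median of 9.16. Of the P6- cells of prefix P6, 3 of 11 had Ldha detected, at 672, 802 and 3284 cpm, the last of which held 61.9% of the reads, and the others had at most 5.31 cpm. Among P6- cells of all prefixes 69 (53.5%) were detected, against 22 of 32 P6+ cells (68.8%). Of the more numerous P6- cells 43 exceeded 1000 cpm, and 12 of 32 P6+ cells did, a slightly larger share. The pools were 891 cpm (883 to 899), 295 cpm (286 to 304) and 1068 cpm (1063 to 1072). The log2 ratio of Ldha was thus 1.59 within prefix P6 but -0.26 over all prefixes and -0.97 against the P6- cells of low mitochondrial share. Without the cell of each group that had most reads of the 10 enzymes it was 2.79 within prefix P6. A larger share of P6+ than of P6- cells had Ldha, while the highest P6- cells exceeded every P6+ cell.

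Set side by side, most of the 9 enzymes above 20 cpm were higher in the P6+ pool, as were many other genes. Within prefix P6 their median log2 ratio was 1.28, against 0.73 over the 6808 genes above that level, and 6 of 9 enzymes (Hk1, Aldoa, Tpi1, Pgk1, Pkm and Ldha) were at 1 or more, where 47.2% of all genes were. This count depended on how cells were combined. With the mean of the cpm of single cells and with cells thinned to equal depth the median of the enzymes was 0.72 and 0.71, against 0.73 over all genes in either case, and 4 of 9 were at 1 or more, where 47.05% and 46.9% of all genes were. Aldoa then stood at 0.72 and 0.71, and Tpi1 at 0.39 and 0.38. Both alternatives give each cell the same weight, so their agreement adds no separate evidence. None of the 9 was at -1 or less, where 25.5% of all genes were, but Pfkp, at -0.94, was at -1.30 and -1.36 in these alternatives. The background here comes from pools of unequal size, 32 against 11 cells, and among genes above 100 cpm it was 30.6%. Over all prefixes the median was 0.68 against 0.01 over 7384 genes, with 3 of 9 enzymes (Tpi1, Pgam1 and Pkm) at 1 or more against a background of 24.3%, and 0 at -1 or less against 26.7%. The 57 passing P6- cells that shared lane L002 with the P6+ cells gave a median of 0.27 against 0.09 over all genes, and again 3 of 9 enzymes (Pgk1, Pgam1 and Pkm) at 1 or more, where the background was 29%, and 0 at -1 or less against 27%. The 35 P6- cells of low mitochondrial share gave a median of 0.39 against 0.09, and 3 of 9 (Tpi1, Pgk1 and Pgam1) at 1 or more, with a background of 29.8%, and 0 at -1 or less against 26.7%. The share of enzymes past this ratio was thus close to that of all genes in the last 3 comparisons. In pooled reads 5 of 9 enzymes were higher in P6+ cells in each of the 4 comparisons, which share the same P6+ cells and some of the P6- cells, and 38.4% of 6246 genes were as well. These enzymes had a lowest log2 ratio of 0.94 for Pgk1, 0.93 for Pgam1, 0.83 for Tpi1, 0.68 for Pkm and 0.27 for Aldoa.

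The share of cells with an enzyme was higher in P6+ cells for most enzymes, as it was for most genes. Over all prefixes each of the 9 enzymes was detected in a larger share of P6+ than of P6- cells, where 80.7% of all genes were, with differences from 8.75 points for Pfkp to 35.6 points for Pkm and a median of 18.8 points, against 9.45 points over the 3781 genes detected in at least 10% of the cells of either group. Pkm was detected in 90.6% (exact binomial interval 74.98 to 98.02) of P6+ and 55.04% (46.04 to 63.8) of P6- cells. Pgk1 was detected in 37.5% (21.1 to 56.3) and 12.4% (7.26 to 19.4). Differences of 20 points or more were found for 4 of 9 enzymes (Pkm, Aldoa, Pgk1 and Tpi1), where 18.7% of genes had them. Within prefix P6 the share was higher in P6+ cells for 7 of 9 enzymes and for 73.6% of all genes, with a median of 13.1 points against 7.95 points over 4603 genes, and 3 of 9 (Ldha, Pgk1 and Aldoa) differed by 20 points or more, where the background was 21%. The 10% limit there counted 32 P6+ and 11 P6- cells together, so genes detected mainly in P6+ cells passed it more easily. Ldha had the largest difference there, 41.5 points, and Pgam1 and Pfkp were lower in P6+ cells by -2.27 and -8.24 points. With 11 cells in the P6- group these shares are wide: that of Ldha, 27.3%, has an interval of 6.02 to 60.97, which overlaps that of P6+ cells, 68.8% (49.99 to 83.9). Against the P6- cells of lane L002 the difference was positive for 9 of 9 enzymes and 77% of all genes, with medians of 17.2 and 8.22 points, and 3 of 9 were at 20 points or more (background 16.6%). For Pfkp it was only 0.0548 points there, with 28.1% of P6+ and 28.07% of P6- cells. Against those of low mitochondrial share it was positive for 9 of 9 and 75.5% of all genes, with medians of 14.1 and 7.32 points, and 2 of 9 were at 20 points or more (background 15.2%).

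**Figure D2:**
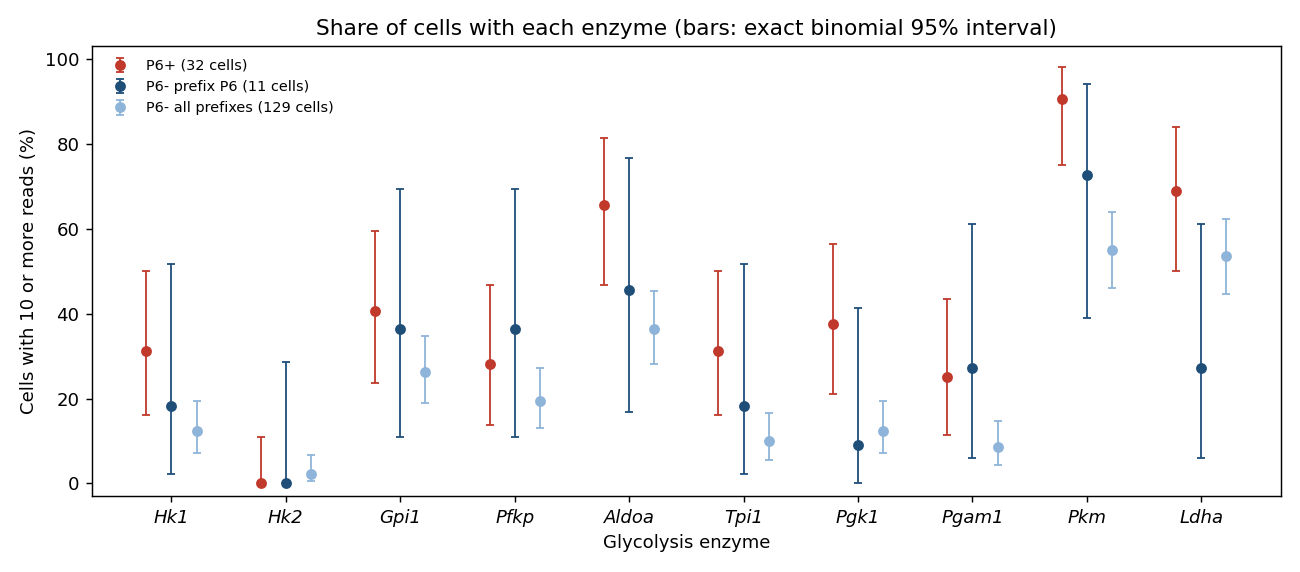
The share of cells in percent with 10 or more reads of each of the 10 enzymes is given for 32 P6+ cells (red), 11 P6- cells of prefix P6 (dark blue) and the passing P6- cells of all prefixes (light blue), with bars for the exact binomial 95% interval. P6+ cells lie above the P6- cells of all prefixes for every enzyme except Hk2, by 8.75 to 35.6 points, and the bars of the 11 cells are the widest.

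Prefix pools of P6- cells differed widely among themselves, which gives a yardstick for the P6+ pool. The P6+ level exceeded that of each of the 8 P6- prefix pools for Pkm, at 2015 cpm against 411 to 1942 cpm, and for Pgam1, at 89.99 cpm against 0 to 46.6 cpm. The highest Pkm pool was that of prefix P7, where 1 cell held 63.9% of the Pkm reads. Of 9539 genes 11% were above all 8 pools and 2.23% below all 8, beside 2 and 0 of the 9 enzymes. Aldoa, Tpi1 and Pgk1 were above 7 of the 8 pools, Hk1 above 6, Gpi1 above 5, Pfkp above 3 and Ldha above 2. For Ldha the pools ran from 295 cpm in prefix P6, the lowest of the 8, to 1597 cpm in prefix P4, with a median of 1095 cpm, so the Ldha difference within prefix P6 was against the lowest of the 8 pools. Pfkp spanned 0.180 to 499 cpm over the 8 pools and Pgk1 0.197 to 231 cpm.

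**Figure D3:**
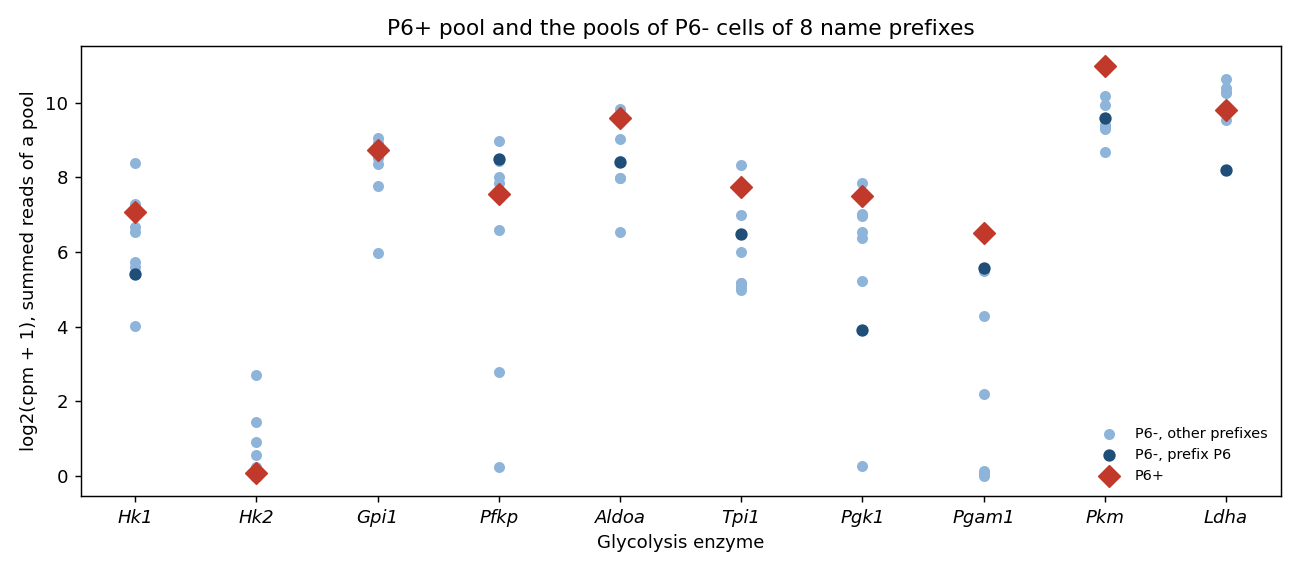
The vertical axis gives log2(cpm + 1) of summed reads for each of the 10 enzymes in the P6+ pool (red diamond), the P6- pool of prefix P6 (dark blue) and the P6- pools of the 7 other prefixes (light blue), of 11 to 24 cells each. The P6+ pool lies above all 8 P6- pools for Pkm and Pgam1, within their range for the other enzymes, and above only 2 of 8 for Ldha.

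P6+ cells had more of the enzymes at once. The number of the 10 enzymes detected per cell ranged from 0 to 8 with a median of 4 in P6+ cells, from 0 to 9 with a median of 3 in P6- cells of prefix P6, and from 0 to 9 with a median of 2 in all P6- cells. At least 5 enzymes were detected in 13 of 32 P6+ cells, or 40.6% (23.7 to 59.4), in 2 of 11 P6- cells of prefix P6 and in 14 of all P6- cells, or 10.9% (6.06 to 17.5). Among P6- cells of low mitochondrial share the number was 5 of 35, or 14.3% (4.81 to 30.3). At an equal depth of 522192 reads per cell, reached by thinning, the medians were 4, 2 and 2 enzymes, while the medians of genes per cell were 2794, 2633 and 2259. Among P6+ cells those with more genes also had more of the enzymes, with a Spearman's rho of 0.62 across the 32 P6+ cells and 0.50 across all 161 passing cells, but -0.06 across the 11 P6- cells of prefix P6, and these counts come from the same libraries and share their depth and quality. With the mitochondrial share the rho was -0.33 in P6+ cells, -0.61 in the P6- cells of prefix P6 and -0.27 in all P6- cells. P6+ cells were not uniform: 2 of 32 had 0 of the 10 enzymes detected and only 7.25 and 13.6 cpm of them in sum, although they held 2205552 and 1395200 reads, and the next cell had 1101 cpm. The highest P6+ cell had 12398 cpm.

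**Figure D4:**
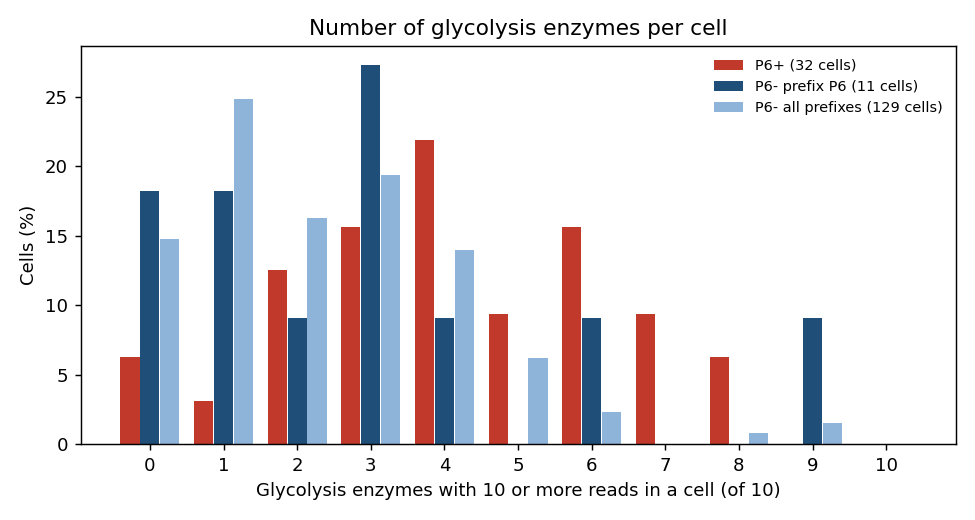
The bars give the percentage of P6+ cells (red), P6- cells of prefix P6 (dark blue) and P6- cells of all prefixes (light blue) that had each number, from 0 to 10, of glycolysis enzymes at 10 or more reads. P6+ cells spread around a median of 4, the P6- cells of all prefixes around a median of 2, and no cell had all 10.

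Levels of different enzymes were compared per kilobase of exon, as longer transcripts give more reads in a full-length protocol. In P6+ cells Pkm was the most abundant of the 10, at 403 cpm per kilobase, followed by Ldha at 269 and Aldoa at 267 cpm per kilobase, which did not differ beyond counting error. Pgk1 (81.1), Tpi1 (77.9) and Gpi1 (65.8) formed a middle range, and Pgam1 (45.4), Hk1 (15.6), Pfkp (13.9) and Hk2 (0.00847 cpm per kilobase) were lower. In all P6- cells Ldha came first at 323 cpm per kilobase, then Pkm at 173 and Aldoa at 166, but in P6- cells of prefix P6 Pkm came first, at 155 against 116.9 for Aldoa and 89.1 for Ldha, so the order differed between P6- pools. In all P6- cells Pgam1 was at 10.03, just under Hk1 at 11.7. Aldolase and the enzymes of the last steps thus had the highest levels of the 10 in either group. The hexokinases and Pfkp were the 3 lowest in P6+ cells, and in all P6- cells Pgam1 stood between Hk1 and Hk2. The length used joins the exons of all annotated transcripts of a gene, 13401 bp for Pfkp and 1982 bp for Pgam1, and can exceed that of a single transcript. In cpm not divided by length Pfkp, at 186, stood above Pgam1, at 89.99, in P6+ cells, so these ranks depend on the lengths used. Gapdh, the glyceraldehyde phosphate dehydrogenase between Tpi1 and Pgk1, and Eno1, the enolase before Pkm, are no members of the set but complete the chain, with 379 and 262 cpm per kilobase in P6+ cells. Their log2 ratios were 0.19 and 0.22 within prefix P6 and -0.01 and 0.78 over all prefixes. Gapdh, often taken as a reference transcript, was detected in 31 of 32 P6+ cells but in 84 P6- cells (65.1%).

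Of the alternative isozymes at the phosphofructokinase and lactate dehydrogenase steps, Pfkl and Ldhb had lower pooled levels in P6+ cells. Pfkl, the liver-type phosphofructokinase subunit, had 24.9 cpm (23.6 to 26.2) in P6+ cells, 245 cpm (237 to 253) in P6- cells of prefix P6 and 429 cpm (426 to 432) in all P6- cells, with log2 ratios of -3.25 and -4.05. It was detected in 2 of 32, 2 of 11 and 23 (17.8%) of the cells of the 3 groups, and 1 cell held 79.4% of the P6+ reads. Per kilobase, Pfkp exceeded Pfkl in P6+ cells, at 13.9 against 3.73 cpm, and Pfkl exceeded Pfkp in all P6- cells, at 64.2 against 16.6 cpm. Pfkm, the muscle type, was nearly unread in every pool, with 0 reads in P6+ cells and in P6- cells of prefix P6 and 0.623 cpm in all P6- cells. Ldhb, the dehydrogenase subunit that favours pyruvate, had 2 reads in the P6+ pool, or 0.0337 cpm (0.00408 to 0.122), and was detected in 0 of 32 cells. It had 268 cpm in P6- cells of prefix P6, where 1 cell held 79.9% of the reads and 2 of 11 cells were detected, and 62.9 cpm in all P6- cells, where 11 cells were. A detection of 0 of 32 cells allows a share of up to 9.38%, which includes the 8.53% of P6- cells, so the difference in the share of cells with Ldhb was not detectable with 32 cells.

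**Figure D5:**
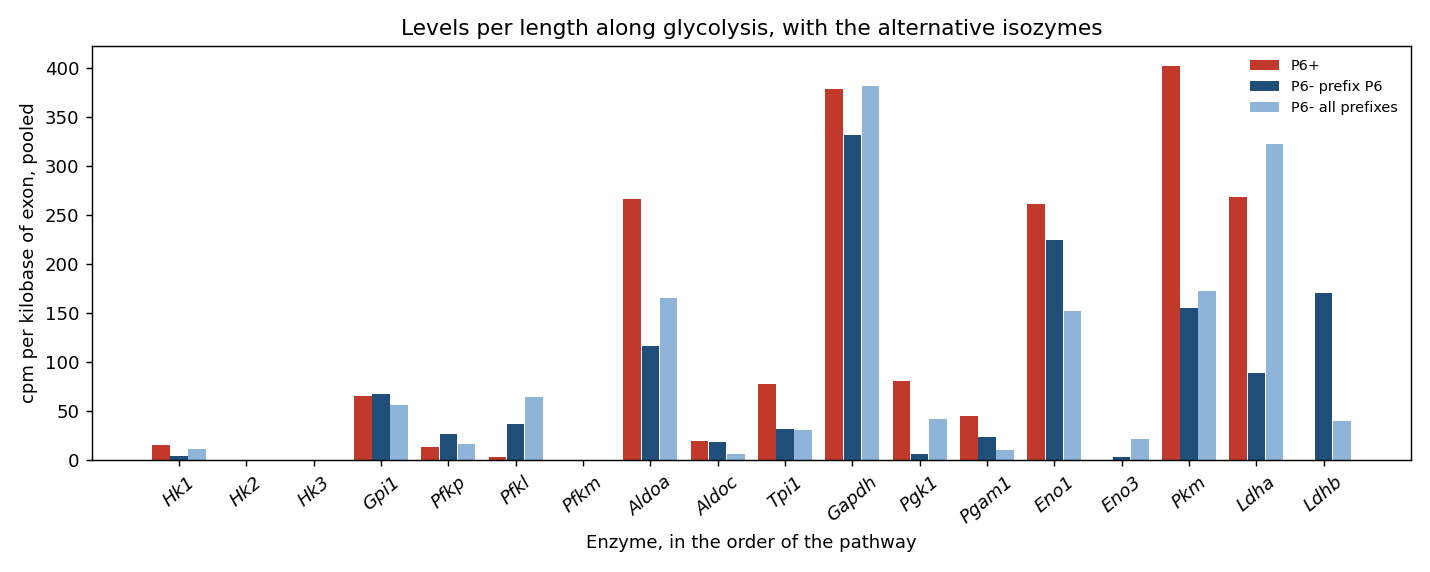
Bars give pooled levels in cpm per kilobase of exon for the enzymes in pathway order and for alternative isozymes, in P6+ cells (red), P6- cells of prefix P6 (dark blue) and P6- cells of all prefixes (light blue). Pkm is highest in P6+ cells at 403, Pfkl is at 3.73 in P6+ and 64.2 in all P6- cells, and Ldhb is at 0.0215 in P6+ cells and 171 in the P6- cells of prefix P6, most of it from 1 cell.

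The enzymes moved together only weakly from cell to cell. Over the 161 passing cells the 36 pairs of the 9 enzymes had a median Spearman's rho of 0.17, from -0.00 to 0.34, and 35 of 36 were above 0, with Tpi1 and Pkm the highest pair. Within the 32 P6+ cells the median was 0.18, from -0.22 to 0.43 for Gpi1 and Pkm. In counts this sparse such values are a description only, and all pairs share the depth of the cell. The genes most like the summed cpm of the 10 enzymes, among 407 genes detected in at least 50% of the cells, were Actb (rho 0.37), Cfl1 (0.33), Cyba (0.33), Gm6180 (0.31) and Pfn1 (0.30), against a median of 0.07. Actb encodes β-actin, Cfl1 and Pfn1 encode the actin-binding proteins cofilin and profilin, and Cyba encodes a subunit of the NADPH oxidase. With the summed cpm of the 8 cycling markers the sum had a rho of 0.01 in P6+ cells, 0.47 in the 11 P6- cells of prefix P6, 0.35 in the 35 P6- cells of low mitochondrial share and 0.16 in all P6- cells. These markers were themselves higher in the P6+ pool, at 762 cpm against 171 cpm in P6- cells of prefix P6 and 446 cpm in all P6- cells.

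Promoter sequences are shown for 3 enzymes because their genes carry the largest values here: Ldha and Pgk1 had the largest differences in share of cells within prefix P6, and Pkm was the most abundant. Each is a window from 250 bases before to 50 after an annotated start, from RefSeq on GRCm38.p6, printed 5′ to 3′ on the gene's strand. Capitals mark each ACGTG on either strand, a form of the core of the HIF response element. The Ldha window is chr7:46845554-46845853, plus strand, and holds 3 such places, of which 2 are CACGTG, the E-box bound by MYC, where matches on both strands overlap. The Pgk1 window is chrX:106186850-106187149, plus strand, with 2 places, and the Pkm window is chr9:59656326-59656625, plus strand, with 0. Ldha and Pkm each have a further window, not printed: that of Ldha at chr7:46846832-46847131 holds 0 such places and that of Pkm at chr9:59656977-59657276 holds 2, so the count depends on the start chosen.
Ldha: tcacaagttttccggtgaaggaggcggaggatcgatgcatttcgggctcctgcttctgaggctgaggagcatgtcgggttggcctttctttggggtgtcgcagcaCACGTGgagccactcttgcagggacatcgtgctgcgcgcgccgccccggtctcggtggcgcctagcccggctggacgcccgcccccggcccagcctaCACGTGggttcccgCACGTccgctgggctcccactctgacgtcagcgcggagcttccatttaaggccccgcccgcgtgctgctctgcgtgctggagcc
Pgk1: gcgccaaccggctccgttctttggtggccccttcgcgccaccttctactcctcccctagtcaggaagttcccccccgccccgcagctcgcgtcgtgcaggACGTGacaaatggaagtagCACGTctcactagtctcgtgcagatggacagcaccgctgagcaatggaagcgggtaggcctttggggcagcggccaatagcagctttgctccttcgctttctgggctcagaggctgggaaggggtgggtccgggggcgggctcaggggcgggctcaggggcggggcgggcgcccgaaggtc
Pkm: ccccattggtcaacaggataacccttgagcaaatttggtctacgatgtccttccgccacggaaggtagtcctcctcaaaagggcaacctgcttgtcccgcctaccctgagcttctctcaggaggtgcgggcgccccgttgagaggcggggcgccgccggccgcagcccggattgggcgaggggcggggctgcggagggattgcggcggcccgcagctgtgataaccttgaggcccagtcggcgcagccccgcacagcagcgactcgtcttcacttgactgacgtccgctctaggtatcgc
Of the 15 windows of the 10 enzymes 8 held ACGTG, against 19.6% of all 32851 windows, and 2 of the 8 are windows of Aldoa that overlap each other. Counted by gene, 7 of 10 enzymes had at least 1 window with it, among them Hk2, which was almost unread here, against 21.8% of all 27025 genes with a window. Windows of Tpi1, Gpi1 and Pfkp held no ACGTG, and GCGTG, another form of that core, was not searched in any window. CACGTG was found in 1 of the 15 windows, that of Ldha, and in 7.15% of all. These matches describe letters in the window and are not sites shown to be bound in these cells.

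Neighbouring pathways did not move as one. Among 18 other glycolysis genes and isozymes 5 were above 20 cpm within prefix P6, of which 0 were at a log2 ratio of 1 or more and 2 (Ldhb and Pfkl) at -1 or less, and their median was 0.14. Over all prefixes 6 were above that level, with 1 (Aldoc) higher, 3 (Ldhb, Pfkl and Eno3) lower and a median of -2.03. Aldoc was detected in only 3.125% of P6+ and 2.33% of P6- cells. Backgrounds for higher and lower genes were 47.2% and 25.5% within prefix P6, and 24.3% and 26.7% over all prefixes. Of 5 transporters 2 were higher and 2 lower within prefix P6, and 0 were higher and 1 lower over all prefixes. Bsg, the chaperone of the lactate transporters, had 396 cpm in P6+ cells and 97.1 cpm in P6- cells of prefix P6 (log2 ratio 2.02, and 0.63 over all prefixes). Slc16a1, the lactate transporter MCT1, had 5 reads in P6+ cells, or 0.0842 cpm (0.0273 to 0.197), against 136.3 cpm in P6- cells of prefix P6, where 1 cell held 87.8% of its reads, and 66.6 cpm in all P6- cells, 12 of which had it. Slc2a1, the glucose transporter GLUT1, had 38.8 cpm in P6+ cells, 99.8% of it from 1 cell, 2 reads in P6- cells of prefix P6 (0.129 cpm, 0.0157 to 0.468) and 34.6 cpm in all P6- cells.

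Of 14 regulators of glycolysis 7 were above 20 cpm within prefix P6, with 2 higher (background 47.2%), 1 lower (25.5%) and a median of 0.16. Over all prefixes 1 of 8 was higher (24.3%) and 2 lower (26.7%), with a median of -0.43, so the sign of the median depended on the P6- cells compared. Myc, a transcription factor that induces glycolytic genes, had 129.2 cpm in 5 of 32 P6+ cells and 35.5 cpm in 1 of 11 P6- cells, a log2 ratio of 1.84. It was 0.95 over all prefixes but -0.08 against the P6- cells of lane L002, which had 136.6 cpm. Mtor was read in 2 of 32 P6+ cells, with 29.2 cpm of which 1 cell held 95.96%, and had 1 read in P6- cells of prefix P6 (0.0647 cpm, 0.00164 to 0.361) but 59.1 cpm in all P6- cells. Pdk2, which inhibits pyruvate dehydrogenase, had 1 read in P6+ cells, and its 225 cpm in P6- cells of prefix P6 came almost wholly, 99.97%, from 1 cell. In the pentose phosphate pathway 3 of 6 genes were higher and 2 lower within prefix P6, and 0 of 6 higher and 1 lower over all prefixes, beside the same backgrounds. Pgd and Rpe were at 30.7 and 36.9 cpm in P6+ cells with 2 and 3 reads in P6- cells of prefix P6, and at 37.7 and 42.97 cpm in all P6- cells, while Pgls, the lactonase, was at 42.4 cpm against 249.97 cpm in P6- cells of prefix P6 and 72.01 cpm in all. Only 3.125% of P6+ cells had 10 reads or more of Pgd, and 12.5% had them of Rpe. No gene of gluconeogenesis was above 20 cpm within prefix P6.

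Of 7 genes for the entry of pyruvate into the mitochondrion and its oxidation 4 were above 20 cpm within prefix P6, of which 0 were at a log2 ratio of 1 or more (background 47.2%) and 1 at -1 or less (25.5%), with a median of -0.57. Over all prefixes 0 of 6 were higher (24.3%) and 3 (Mpc1, Pdha1 and Pdhx) lower (26.7%), with a median of -0.77. The gene lower within prefix P6 was Pdhb, a subunit of pyruvate dehydrogenase, at 268 against 860.2 cpm (log2 ratio -1.68 within prefix P6, -0.48 over all prefixes). Dld and Mpc2 were at -0.70 and -0.43. Pdha1, the other subunit of its first enzyme, had 66.2 cpm in P6+ cells, 52.6 cpm in P6- cells of prefix P6 and 145.0 cpm in all P6- cells, with log2 ratios of 0.33 and -1.12. In the tricarboxylic acid cycle 7 of 12 genes were higher and 1 lower within prefix P6 (backgrounds 47.2% and 25.5%), with a median of 1.27, close to that of the glycolysis enzymes. Over all prefixes 4 of 13 were higher and 3 lower (24.3% and 26.7%), with a median of -0.25. Idh3b, a subunit of isocitrate dehydrogenase, had 347 cpm in 14 of 32 P6+ cells, 0.518 cpm in P6- cells of prefix P6 and 117.2 cpm in all P6- cells, 15 of which had it, and it belongs to the study's own list of genes for P6+ cells, chosen on these cells, so its direction is not independent evidence. Cs, citrate synthase, had 221 cpm in P6+ cells, 1.42 cpm in P6- cells of prefix P6 and 92.7 cpm in all P6- cells, with log2 ratios of 6.52 and 1.24. Sdha, which feeds electrons to the respiratory chain, had 262 cpm in P6+ cells, 1.62 cpm in P6- cells of prefix P6 but 316 cpm in all P6- cells, so its log2 ratio turned from 6.65 to -0.27. Within prefix P6 Cs was detected in 21.9% and Sdha in 18.75% of P6+ cells, and each in 0 of 11 P6- cells. A detection of 0 of 11 cells allows a share of up to 27.3%, which includes both shares but not the 43.75% of Idh3b.

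Genes that overlap or copy the enzymes could take part of their reads. On the opposite strand exons of 157 bp of Hk1os overlap Hk1, 741 bp of Gm26762 overlap Gpi1, 748 bp of Pitrm1 overlap Pfkp, 25 bp of Fam57b overlap Aldoa and 34 bp of Spsb2 overlap Tpi1, and on the same strand 767 bp of Gm49759 overlap Pkm. The library kit does not mark strand, so reads in these stretches cannot be assigned to 1 gene. Rows of processed copies held 3.38% as many reads as Gpi1, 3.02% as many as Pgam1, 1.23% as many as Tpi1 and under that share of Ldha, Pgk1 and Aldoa. On GRCm38 the most abundant enzymes lie at chr9:59656368-59679375 (Pkm, plus strand), chr7:46841475-46855627 (Ldha, plus strand) and chr7:126795234-126800751 (Aldoa, minus strand), and Pgk1 lies at chrX:106187100-106203699, and reads were counted over the exons of each gene, untranslated regions included.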

How the data were processed

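The authors mapped reads of each cell with STAR 2.6.0a to GRCm38 with Ensembl 92 annotation and deposited a table of raw read counts of 176 cells, not normalized and not filtered. FastQC 0.11.7 and SAMtools 0.1.19 stand in the submitters' processing notes. Libraries were amplified for 23 cycles and read as 150 bp pairs. The 53647 rows held 53546 names, and 81 names were repeated. Rows of a name were summed, since the second row of Aldoa held 0 reads, whereas the study averaged them. The tetramer sign matched the label of 176 of 176 cells. Of the study's limits those on reads, genes and mitochondrial share were applied, and that on mapping rate was not used here. Fewer P6- cells were kept in the study, and which of the P6- cells used here it left out is not known. Doublets were not called, since wells were sorted to hold 1 cell.

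The reads of a gene in the cells of a group were added and scaled to 1000000 reads (cpm). Genes with 20 cpm in the higher group were compared by log2 ratio with a pseudocount of 1 cpm, and a ratio of 1 in size was taken as the limit of a call. Intervals are exact Poisson and exact binomial at 95%, and a count of 0 allows 3 counts in a pool. Each group counted as 1 sample and no p-value was computed. The 10 enzymes, the other lists and the rules for named genes (up to 3 genes of each other list with the largest log2 ratio in size within prefix P6, and the 5 genes whose levels follow the enzymes' sum most closely among those with 10 reads in 50% of cells) were chosen with earlier results of these data known; Gapdh, Pfkm and marker genes were named beside them after their values were seen. Exon lengths, with the exons of all transcripts of a gene joined, came from GENCODE M21 on GRCm38. On counts simulated over 53546 genes with known changes, the direction was right for each changed gene, and within prefix P6 94.3% of genes lowered by a log2 value of 2 were within 0.25 of it. Simulated cells of a group differed only by depth and counting error, unlike the cells here, and ratios were centred on the unchanged genes. The simulation therefore checks the calculation and not the accuracy of the ratios in these cells. Scaling by TMM (edgeR 4.0.16) and by size factors (DESeq2 1.42.0, R 4.3.3) was tried on pooled sums without a test. Python 3.11.15, numpy 2.4.6, pandas 2.3.3, scipy 1.17.1 and matplotlib 3.10.9 were used otherwise. Results for some marker genes are not reported here. Alternatives changed the cell limits, the pooling, the scaling, the pseudocount, the depth and the P6- cells compared.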

Additional observations from a re-analysis of the deposited data

How the results depend on the processing

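Within prefix P6 the median log2 ratio of the 9 enzymes, 1.28, was 0.72 with the mean of the cpm of single cells and 0.71 with cells thinned to equal depth. The median of all genes was 0.73 in either case, so under these alternatives, which both weight each cell equally, the enzymes stood no higher than the typical gene. The enzymes' median was otherwise as follows. This median was 1.63 without the top cell of each group and 1.48 with the limit of 3000 genes, where all genes stood at 0.91 and 0.86. The number at 1 or more, 6, was 4 in the first pair of alternatives and 7 in the second. It was 3 with the median over cells of log2(cpm + 1), where Hk1 was reversed at -0.44, but there the median was 0.91 against 0 over all genes and only 8.40% of genes were at 1 or more. The causes were not tested. The background of higher genes was 47.2%, and 30.6% above 100 cpm. Over all prefixes the median ran from 0.27 (P6- cells of lane L002, all genes 0.09) to 0.91 (median over cells, all genes 0), from 0.55 to 0.90 when 1 prefix was left out of the P6- pool, and the number at 1 or more was 3 or 4. Pfkp, at -0.94 within prefix P6, came to -1 or less without the mitochondrial reads (-1.0), with TMM factors (-1.0), with DESeq2 size factors (-1.02), with the mean of single cells (-1.30) and with thinning (-1.36). With the median over cells of log2(cpm + 1) Pfkp turned to 0.32. Of the log2 ratios of single enzymes 3 of 207 over all prefixes and 7 within prefix P6 moved by more than the SD over the 8 prefix pools. Shares of cells with an enzyme left the 95% binomial interval of the main share for 23 of 30 when 1 read was enough, and for 0 of 30 after thinning, which still changed the enzymes at 20 points or more. Over all prefixes Tpi1 went to 14.9 and Ldha to 21.5 points, with 4 of 9 at 20 points or more (background 17.9%). Within prefix P6 Aldoa went to 17.05 and Pkm to 32.95 points, with 3 of 9 (background 19.7%). The thinned differences of shares, averaging rows of a name, the limit of 3000 genes, lane L002, and the limit on the mitochondrial share were chosen after seeing the data. With 1 mouse and 11 P6- cells in the shared prefix, even the largest difference of shares there, 41.5 points for Ldha, has overlapping intervals. No paired analysis was possible because the cells carry no pairing number and no test was made.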
